A study of Mus musculus with 59 samples.

Results

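Cells sorted as DN2 were compared with cells sorted as DN1 after both had been given the form of TCF-1 that the labels call P45. The names DN1 and DN2 stand here for the sort gates, and which cell types each sort held was not tested. The 12 libraries of these 2 sorts, 6 each, were chosen by their labels from the 59 samples given for the series. All carry TCF1KO in their title and came from bone marrow progenitors of mice whose strain is labelled Tcf7eGFP fl/fl Cre+, so that the cells of both sorts carry the floxed Tcf7 gene, and the Cre driver is not named in the labels. Cell line samples of the same series that carry P45 in their title have the treatment WT TCF-1 RV, and P45 is read here as wild-type TCF-1 on that ground. The cells were grown on OP9-DLL1, a mouse stromal line that presents the Notch ligand DLL1, and sorted after 7 days. Per the labels' protocols, both sorts were CD45+. The DN1 gate took cells with high c-Kit and CD44 and low CD25, and the DN2 gate took those with low c-Kit and CD44 and high CD25. The source name of the DN2 samples reads CD44+ CD25+, which differs from that gate. Each sort had 3 libraries in each of 2 replicates, whose libraries were summed. Whether replicates came from different animals or cultures is not given in the labels, and the p-values weigh differences against a spread between samples that may be technical.

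T cell progenitors enter the thymus as DN1 cells, which can still become myeloid, dendritic or natural killer cells, and pass through DN2 as they settle on the T lineage. Notch signals start this transition. TCF-1, encoded by Tcf7, acts early downstream of Notch, together with GATA3, and the later factor Bcl11b closes off the other fates. CD25, the interleukin-2 receptor alpha chain encoded by Il2ra, marks the DN2 stage.

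The summed replicates held 21.46 and 34.39 M reads in genes for DN1 and 21.95 and 21.46 M for DN2, from libraries of 5.32 to 16.80 M. Ribosomal RNA genes took 20.6% to 23.4% of these reads in DN1 libraries and 16.8% to 21.4% in DN2 libraries, and between 16368 and 18853 genes had a read. Libraries of the same replicate differed by a chi-square per gene of 1.91 to 9.35, and libraries of the other sort by 41.5 to 96.4, so no library was counted as a copy of another. Levels are given as CPM, the count of a gene scaled to 1e+06 reads in genes with TMM factors, which depend on gene length and are compared only between samples. Where a gene has a pair of values for a sort, they belong to replicate 1 and then replicate 2.

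Tcf7, the gene of the delivered factor, was read first as a check of the labels. Over the 6 DN1 libraries the lowest, median and highest values were 593, 639 and 652 CPM, and over the 6 DN2 libraries they were 691, 726 and 771 CPM. The libraries did not overlap, but on the summed replicates the log2 fold change was 0.18 ± 0.09 (SE) with an adjusted p of 0.154 by edgeR. The adjusted p was 0.00492 with library totals, 0.0255 with no filter on low counts, 0.0191 with only the 2 P45 groups in the fit and 0.000976 with each library as its own replicate. In DN1 cells of the same strain with the construct labelled EV the level was 3.79 ± 0.66 CPM (SD, n = 2). The counts cannot tell retroviral from endogenous Tcf7 RNA.

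The genes of the sorting antibodies were read as a check of the gates and not as results, since they chose the cells. Il2ra was 3.42 and 2.20 CPM in DN1 and 1278 and 1183 CPM in DN2, which was 455-fold higher. Cd44 was 2.13-fold lower in DN2, at 367 and 351 against 168 and 169 CPM. Kit RNA went against the c-Kit low gate. It was 93.2 and 109 CPM in DN1 and 261 and 284 CPM in DN2, 2.70-fold higher, and the libraries of the sorts did not overlap. Itgam, which encodes CD11b, was 416 and 486 CPM in DN1 and 43.2 and 41.5 CPM in DN2, and Thy1 went from 0.481 and 0.422 to 30.1 and 18.7 CPM. The gates described above give no level for CD11b or Thy1, so the values of these genes check no gate here.

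Of 15010 genes tested, 6493 (43.3%) differed between the sorts, of which 3095 (20.6%) were higher in DN2 and 3398 (22.6%) were lower at an adjusted p under 0.05. Changes of at least 2-fold were called for 867 genes (5.78%) that were higher and 1370 (9.13%) that were lower. At 16-fold or more the number was 134 (0.893%) in each direction. The replicates of the sorts did not overlap for 11061 genes (73.7%). These shares are the background for the counts of list members below. In bulk RNA, more or fewer cells of a type and more or less RNA per cell cannot be told apart. With library totals in place of TMM factors, 64.46% of the calls were higher, against 47.67% in the main scaling, and the median log2 fold change of all genes moved from -0.02 to 0.13.

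**Figure D1:**
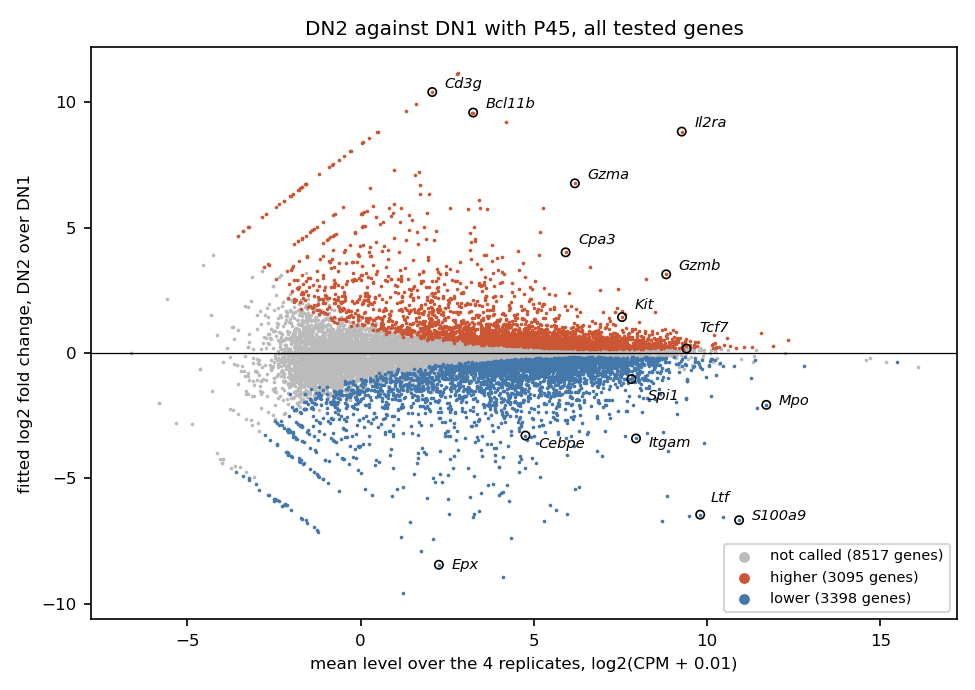
All 15010 tested genes, with the mean level over the 4 replicates as log2(CPM + 0.01) on the horizontal axis and the fitted log2 fold change of DN2 over DN1 on the vertical axis. Orange points are the 3095 genes that were higher in DN2, blue points the 3398 that were lower and grey points the 8517 not called. Genes with 0 to 3 reads in one sort lie along the slanting lines, and their fitted change depends on the prior count.

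Factors of T lineage commitment were mostly higher in DN2. Of 21 tested factors 12 rose and 3 fell, with a median log2 fold change of 0.78 where the median of all genes was -0.02. Bcl11b (chr12:107910403-108003602 in GRCm38), the zinc finger factor of commitment, had no read in DN1 replicate 1 and 1 read in replicate 2. In DN2 it was 22.04 and 15.8 CPM, with 883 reads in all. The ratio of the counts was 1020 with an exact 95% interval of 183 to 40335, which covers counting error only. None of the 6 DN1 libraries exceeded 0.0627 CPM, and the lowest of the DN2 libraries was 15.9 CPM.

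Gata3, the partner of TCF-1 in starting the T program, was 3.46 and 1.99 CPM in DN1 and 48.8 and 39.1 CPM in DN2. Every DN2 library lay above every DN1 library, and the difference was 16.6-fold (log2 4.06 ± 0.35 SE, adjusted p = 1.97e-07). Tox, an HMG-box factor needed later in T cell development, was 0.722 and 0.452 CPM in DN1 and 19.4 and 17.8 CPM in DN2, a 32.7-fold rise. Bach2, a repressor that holds back effector programs, rose 9.39-fold, and Sox4 rose 5.86-fold, from 51.2 and 49.0 to 301 and 285 CPM. Ikzf2, Satb1, Runx3, Myb and Zeb1 rose as well, by 6.05-fold, 3.34-fold, 1.72-fold, 1.70-fold and 1.53-fold.

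Several regulators of the same list did not pass the test. Runx1 was 143 and 149 CPM in DN1 and 156 and 155 CPM in DN2 (log2 0.09 ± 0.06 SE, adjusted p = 0.253), and Ikzf1 had a log2 fold change of -0.08 ± 0.08 (SE). Ets1 fell 2.77-fold, from 66.2 and 75.5 to 29.1 and 22.1 CPM, and Gfi1, a repressor shared by lymphoid and granulocyte programs, fell 3.61-fold. The replicates of the sorts did not overlap for either.

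The constant segments of the T cell receptor genes and the recombination enzymes were nearly silent in DN1 and present in DN2. All 9 tested genes of this group rose, and their summed level went from 3.03 and 2.5 CPM to 220 and 161 CPM. Without DN1 replicate 2 the count was 7. Trdc (chr14:54142851-54148868), the delta constant segment, had 0 reads in DN1 and 15.5 and 12.7 CPM in DN2. Against a floor of 3 counts over the group it was at least 254-fold higher. Tcrg-C1 went from 1.15 and 1.51 to 91.3 and 61.1 CPM. Trbc1 was 0.385 and 0.392 CPM in DN1 and 22.3 and 20.7 CPM in DN2 (log2 5.77 ± 0.43 SE, adjusted p = 4.56e-08). Trbc1 and Trbc2, and Tcrg-C1 and Tcrg-C2, are near-identical copies. Reads that matched several places were counted apart from genes, so the levels of these copies are less certain. Reads in constant segments do not show that a receptor gene was rearranged.

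Rag1, which makes the cuts of receptor gene recombination, had 0 reads in DN1 and 3.22 and 2.23 CPM in DN2, at least 48.9-fold higher. Dntt, which adds bases at the joins, rose 14.2-fold, and Rag2 rose 8.69-fold. Trac, the alpha constant segment, was under the filter on low counts with 0 reads in DN1 and 7 in DN2. The call for Dntt was lost in 1 of the 4 fits without 1 replicate, and that for Rag2 in 2 of them.

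Genes of the CD3 complex and its signalling chain followed. Of 16 tested, 13 rose and 1 fell, and the median log2 fold change was 2.89. Cd3g had 0 reads in DN1 and 13 and 3.71 CPM in DN2, at least 149-fold higher. Cd3e was under the filter, with 0 reads in DN1 and 30 in DN2. Cd3d was not called, at 0.337 and 0.181 CPM in DN1 and 0.913 and 0.211 CPM in DN2. Skap1, an adaptor of receptor signalling, was at least 89.0-fold higher, and Cd247, which encodes the CD3 zeta chain, rose 54.7-fold. By DESeq2 the adjusted p was 0.0787 for Cd3g and 0.157 for Themis, another adaptor with 0 reads in DN1.

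The kinases of the chain had counts in both sorts. Lck, the kinase that starts receptor signalling, was 2.79 and 2.14 CPM in DN1 and 70.0 and 68.3 CPM in DN2, a 28.5-fold rise (log2 4.83 ± 0.36 SE, adjusted p = 4.77e-08). Its 6 DN1 libraries lay between 1.72 and 3.59 CPM and its 6 DN2 libraries between 60.2 and 73.6 CPM. The Tec family kinase Txk rose 8.96-fold. The adaptors Grap2 and Lat rose 6.11-fold and 2.62-fold, and the kinase Fyn 1.85-fold. The phosphatase Ptpn22, which damps this signal, fell 1.69-fold. Ptcra, the pre-T cell receptor alpha chain, had 1 read in DN1 and 2 in DN2, and Zap70 had 0 and 14, and neither was tested.

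Surface proteins of T cells showed a mixed pattern. Of 13 tested, 8 rose and 1 fell, and without Thy1 7 of 12 rose. Cd7 was 4.04 and 3.07 CPM in DN1 and 30.9 and 31.7 CPM in DN2, an 8.92-fold rise. Cd27 rose 5.88-fold and Il7r, the interleukin-7 receptor that early T cells depend on, rose 6.68-fold. Cd6 went the other way, from 21.1 and 21.7 to 4.87 and 4.93 CPM. Cd5 was 6.16 and 5.60 CPM in DN1 and 5.26 and 5.48 CPM in DN2 and was not called. Defining markers of later thymocytes were at or near 0. Cd8a and Cd8b1 had 0 reads in both sorts, and Cd4 had 6 reads in DN1 and 0 in DN2. In the list of later thymocyte genes 2 of 10 rose and 3 fell, and 6 rose when each library was its own replicate.

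**Figure D2:**
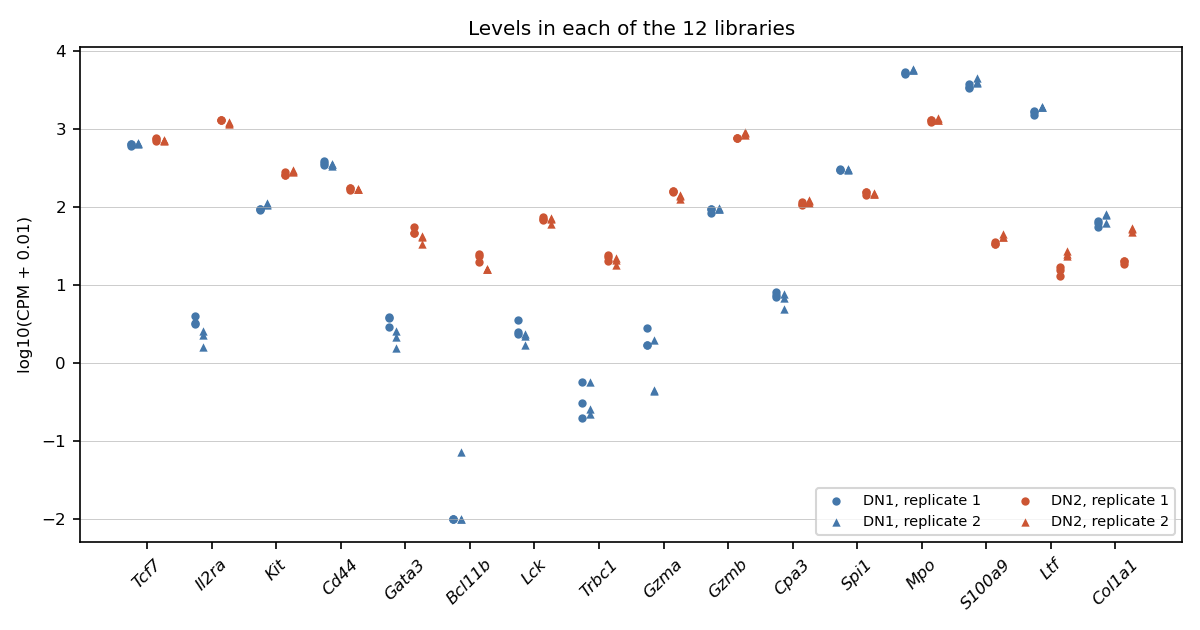
Levels of 16 genes in each of the 12 libraries as log10(CPM + 0.01), with DN1 in blue and DN2 in orange and circles and triangles for replicates 1 and 2. Lck libraries lie between 1.72 and 3.59 CPM in DN1 and between 60.2 and 73.6 CPM in DN2, while those of Mpo and Ltf lie lower in DN2, and DN2 libraries of Col1a1 spread from 18.6 to 54.2 CPM.

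Notch receptors and targets moved in both directions. Of 21 tested genes of the pathway 9 rose and 6 fell. Among targets, Dtx1, an E3 ligase induced by Notch, was 2.21 and 1.84 CPM in DN1 and 22.7 and 28.2 CPM in DN2, a 12.7-fold rise (log2 3.67 ± 0.28 SE). Hes1, a repressor induced by Notch, rose 4.01-fold, from 3.27 and 2.68 to 13.2 and 10.5 CPM. Nrarp, which limits the signal, rose 2.64-fold, and Myc rose 1.57-fold. The call for Nrarp was lost when strand was ignored.

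Among the receptors, Notch1 was 81.0 and 90.6 CPM in DN1 and 192 and 194 CPM in DN2, 2.25-fold higher, and Notch3 rose 5.77-fold. Notch2 fell 1.48-fold, from 317 and 329 to 214 and 223 CPM. Numb, an inhibitor of Notch, fell 2.59-fold. The replicates of the sorts did not overlap for any of these. Rbpj, the DNA-binding partner of Notch, and the fringe enzymes Mfng, Lfng and Rfng were not called.

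Genes of the Wnt pathway, whose nuclear effectors are the TCF factors, included 8 that rose and none that fell among 16 tested. Lef1, the relative of TCF-1, was 0.144 and 0.151 CPM in DN1 and 8.26 and 6.62 CPM in DN2, a 48.3-fold rise (log2 5.59 ± 1.02 SE, adjusted p = 0.000334). Axin2, a common target of Wnt signals, rose 2.84-fold, from 2.65 and 2.77 to 7.48 and 7.97 CPM. Nkd1, Ccnd1, Znrf3 and the corepressor Tle1 rose 6.48-fold, 3.51-fold, 2.15-fold and 1.90-fold. Ctnnb1, Tle3 and Tle4 were not called, and Tle3 had a log2 fold change of 0.01 ± 0.05 (SE).

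E proteins and their inhibitors moved apart. The E protein genes Tcf3, Tcf12 and Tcf4 rose 2.02-fold, 1.53-fold and 1.33-fold. Tcf3 was 89.9 and 86.9 CPM in DN1 and 178 and 179 CPM in DN2. The inhibitors Id1 and Id2 fell 1.70-fold and 1.78-fold. Id2 went from 65.5 and 70.5 to 39.4 and 36.9 CPM, and Id3 was not called (adjusted p = 0.368).

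Cytotoxic genes were also higher in DN2. Of 16 tested genes of natural killer and cytotoxic cells 11 rose and 1 fell, and their summed level went from 170 and 172 to 1032 and 1131 CPM. Gzma (chr13:113093825-113100981), a granzyme, was 2.07 and 0.813 CPM in DN1 and 156 and 131 CPM in DN2, a 109-fold rise (log2 6.77 ± 0.53 SE, adjusted p = 7.36e-08). Gzmb, the granzyme that activates caspases, was 90.1 and 94.3 CPM in DN1 and 750 and 871 CPM in DN2. In the libraries it ran from 83.7 to 97.5 CPM in DN1 and from 749 to 896 CPM in DN2. Il2rb, the beta chain shared by the interleukin-2 and interleukin-15 receptors, had 0 reads in DN1 and was at least 109-fold higher. Cd160 rose 9.02-fold and Klrd1, a natural killer receptor chain, 4.23-fold.

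Several defining factors and receptors of natural killer cells were close to 0. Eomes had 0 reads in DN1 and 4 in DN2, Ncr1 had 0 and 6, and both were under the filter. Klrb1c, which encodes NK1.1, was 0.722 and 0.663 CPM in DN1 and 0.956 and 1.60 CPM in DN2 and was not called. Klrk1 fell 1.98-fold. Reads of Gzmb and Gzmc may be shared between these relatives.

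Genes of innate lymphoid cells rose in 9 of 12 tested and fell in 2. Zbtb16, which encodes PLZF, was 5.58 and 5.90 CPM in DN1 and 24.04 and 31.2 CPM in DN2, a 4.80-fold rise. Pdcd1, which encodes PD-1, rose from 0.818 and 0.482 to 19.955 and 14.2 CPM, a 27.2-fold rise. Il17rb, the interleukin-25 receptor, rose 44.8-fold, Icos 14.7-fold and Rora 3.63-fold. The members that fell were Id2 and Nfil3. Of the genes linked to gamma-delta T cells 7 of 10 rose and none fell. These included the constant segments Trdc, Tcrg-C1, Tcrg-C2 and Tcrg-C4. Segments of this kind were also counted with the receptor genes above. Another was Cd163l1, a scavenger receptor of gamma-delta T cells, at 6.26 and 5.52 CPM in DN2 with 2 reads in DN1. Sox13 was not called, and Il17a had 0 reads in both sorts.

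Mast cell and basophil genes split. Of 19 tested, 10 rose and 4 fell, and their summed level went from 302 and 339 to 536 and 637 CPM. Without Kit, 9 of 18 rose. Without DN1 replicate 2, 7 of the 19 rose and 2 fell. Cpa3, a carboxypeptidase of mast cell granules, was 7.55 and 6.63 CPM in DN1 and 110 and 117 CPM in DN2, a 16.2-fold rise (log2 4.01 ± 0.38 SE). Cma1, a chymase, rose 23.2-fold, from 0.433 and 0.211 to 4.70 and 9.48 CPM, and Cyp11a1 rose 4.85-fold. Hdc, which makes histamine, fell 4.28-fold, and Alox5 fell 4.99-fold. Tpsab1 had 0 reads in both sorts, and Ms4a2, the beta chain of the high-affinity IgE receptor, was 1.54 and 1.66 CPM in DN1 and 0.956 and 1.35 CPM in DN2 and was not called.

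**Figure D3:**
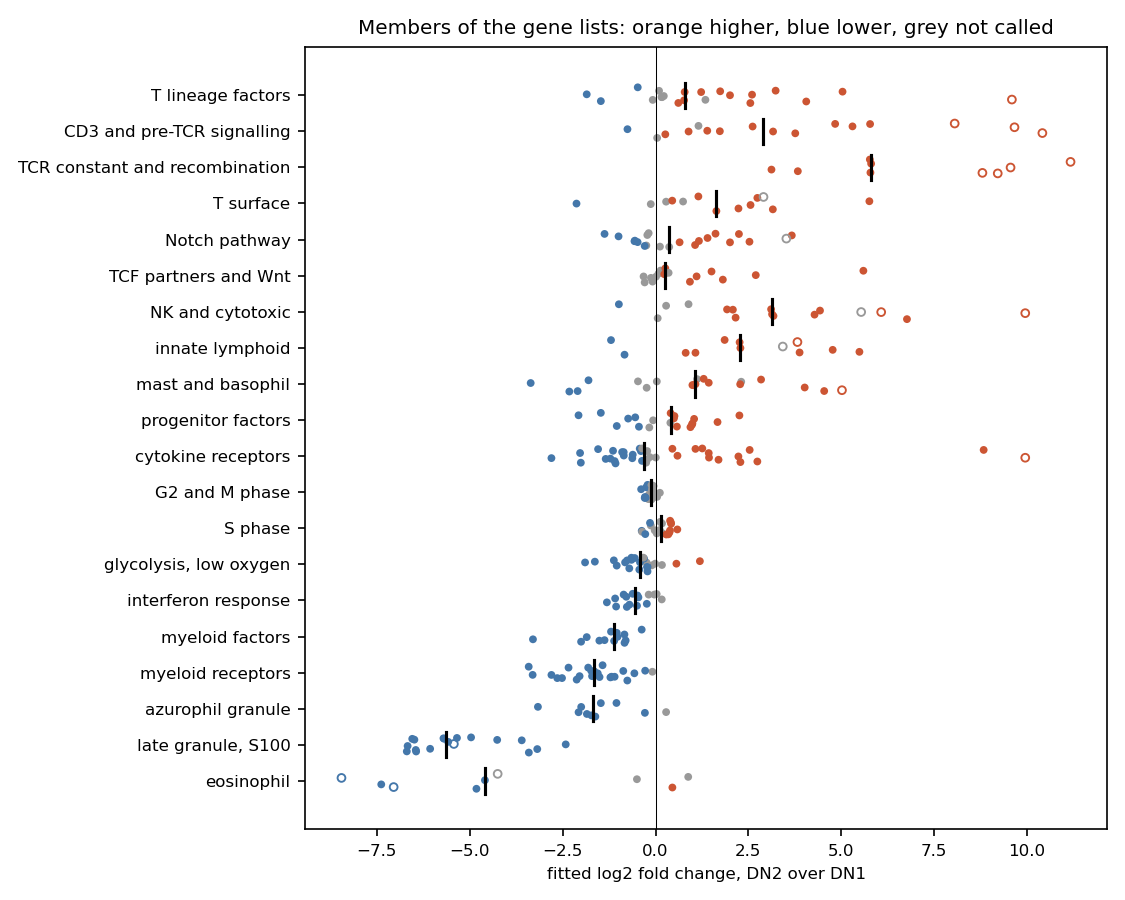
Fitted log2 fold change of DN2 over DN1 for the tested members of 20 gene lists, with orange for higher, blue for lower and grey for not called and a black bar at each list's median. Open symbols are genes with 3 reads or fewer in one sort, whose fitted change depends on the prior count. The median is 5.80 for T cell receptor constant and recombination genes and -5.63 for late granule and S100 genes.

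Factors, granule proteins and receptors of myeloid cells were mostly lower in DN2. All 13 tested myeloid factors fell, with a median log2 fold change of -1.11. Cebpe, the C/EBP factor of late granulocyte maturation, was 46.9 and 51.2 CPM in DN1 and 5.09 and 4.89 CPM in DN2, 9.84-fold lower. Cebpd, Cebpa and Cebpb were 4.01-fold, 2.59-fold and 2.16-fold lower. Spi1, which encodes PU.1, a factor that DN1 cells and myeloid cells share, was 302 and 305 CPM in DN1 and 149 and 146 CPM in DN2, 2.06-fold lower (log2 -1.04 ± 0.07 SE, adjusted p = 9.31e-09). Its DN1 libraries ran from 293 to 308 CPM and its DN2 libraries from 141 to 157 CPM. Irf8 fell 1.29-fold, a call that was lost with library totals.

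Primary granule genes, which promyelocytes make, fell in 9 of 10 tested, and their summed level went from 8375 and 8857 to 2367 and 2358 CPM. Mpo (chr11:87793581-87804413), the myeloperoxidase gene, was 5151 and 5665 CPM in DN1 and 1255 and 1318 CPM in DN2, 4.203-fold lower. Elane, neutrophil elastase, was 739 and 782 CPM in DN1 and 92.3 and 77.3 CPM in DN2, 8.97-fold lower. Prtn3, Ctsg and Ms4a3 were 3.60-fold, 3.31-fold and 4.0-fold lower. Nkg7, which cytotoxic cells also use, was the member that was not called.

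Genes of the later granules and the S100 proteins fell most among the myeloid lists. All 18 fell, with a median log2 fold change of -5.63, and their sum went from 14348 and 16487 to 513 and 558 CPM. S100a9 (chr3:90692632-90695721), an abundant neutrophil protein, was 3541 and 4152 CPM in DN1 and 33.7 and 41.7 CPM in DN2, 102-fold lower (log2 -6.67 ± 0.43 SE, adjusted p = 1.09e-08). Ltf, lactoferrin, was 1612 and 1913 CPM in DN1 and 15.1 and 25.2 CPM in DN2, 87.5-fold lower. Camp, Ngp and Lcn2 were 86.9-fold, 93.5-fold and 52.2-fold lower. Ly6g, the surface marker of neutrophils, was 2.26 and 2.83 CPM in DN1 and 0.0869 and 0.169 CPM in DN2. Lyz2 and Cybb, which macrophages also use, were 12.1-fold and 5.34-fold lower.

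Surface receptors of myeloid cells fell in 22 of 23 tested, with a median log2 fold change of -1.65, and in 21 of 22 without Itgam. Csf3r, the receptor of the granulocyte growth factor G-CSF, was 147 and 145 CPM in DN1 and 20.7 and 21.3 CPM in DN2, 6.97-fold lower. Csf1r, the receptor of the macrophage growth factor, was 305 and 285 CPM in DN1 and 131 and 123 CPM in DN2, 2.32-fold lower. Ly6c2 fell 9.89-fold, Itgb2 3.51-fold, Fcgr3 4.35-fold and Cd14 5.07-fold. Cx3cr1 was 8.90 and 10.6 CPM in DN1 and 8.83 and 9.61 CPM in DN2 and was not called.

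Eosinophil granule genes were close to 0 in DN2. Of 9 tested 5 fell and 1 rose. Prg2, the major basic protein, was 35.2 and 44.9 CPM in DN1 and 0.174 and 0.295 CPM in DN2, 167-fold lower. Epx, eosinophil peroxidase, had 533 reads in DN1 and 1 in DN2. The granule proteins Ear1, Ear2 and Ear6 come from near-identical genes. Siglecf was 20.7 and 26.2 CPM in DN1 and 30.5 and 34.1 CPM in DN2, a rise that lost its call in 3 of the 4 fits without 1 replicate.

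The bases just before the start of 5 genes are shown because these genes stand for the groups that moved apart. Trat1, an adaptor of the receptor complex, Rag1 and Gzmb rose in DN2, and Ctsg fell. Itgam, lower in DN2, is a gene of the sorting antibodies and no result. The sequences are the 250 bases before the RefSeq start, read on the strand of the gene in GRCm38.p6. The genes were picked after their values and matches were seen, among those whose window overlaps no annotated gene. Capitals mark matches on either strand to TCAAAG, a core motif of TCF and LEF factors, to TGTGGT, that of RUNX factors, and to GAGGAAG, that of PU.1. No matches overlap within the printed sequences.
Trat1, chr16:48772063-48772312, minus strand, with 1 TCF match and 1 RUNX match:
Trat1: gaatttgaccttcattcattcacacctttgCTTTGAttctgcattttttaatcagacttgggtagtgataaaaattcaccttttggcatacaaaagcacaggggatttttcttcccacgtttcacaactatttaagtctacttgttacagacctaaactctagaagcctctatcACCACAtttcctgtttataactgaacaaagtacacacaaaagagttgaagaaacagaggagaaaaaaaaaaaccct
Rag1, chr2:101649533-101649782, minus strand, with 2 RUNX matches:
Rag1: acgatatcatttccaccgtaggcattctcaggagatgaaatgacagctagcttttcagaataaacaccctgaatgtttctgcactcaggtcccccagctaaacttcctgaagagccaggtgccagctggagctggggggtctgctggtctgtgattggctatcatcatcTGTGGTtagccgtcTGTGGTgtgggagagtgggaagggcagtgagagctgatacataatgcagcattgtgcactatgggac
Gzmb, chr14:56262335-56262584, minus strand, with 2 RUNX matches:
Gzmb: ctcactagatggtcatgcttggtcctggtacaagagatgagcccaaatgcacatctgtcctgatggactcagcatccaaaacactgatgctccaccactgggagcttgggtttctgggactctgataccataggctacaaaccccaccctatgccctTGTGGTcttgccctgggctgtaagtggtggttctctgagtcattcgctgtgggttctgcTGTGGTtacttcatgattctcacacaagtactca
Itgam, chr7:128062390-128062639, plus strand, with 1 TCF match and 1 PU.1 match:
Itgam: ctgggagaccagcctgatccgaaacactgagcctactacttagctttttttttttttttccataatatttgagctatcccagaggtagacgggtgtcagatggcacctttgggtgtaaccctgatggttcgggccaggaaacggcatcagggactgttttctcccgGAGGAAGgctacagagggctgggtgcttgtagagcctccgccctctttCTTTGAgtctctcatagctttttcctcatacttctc
Ctsg, chr14:56102575-56102824, minus strand, with 1 match of each motif:
Ctsg: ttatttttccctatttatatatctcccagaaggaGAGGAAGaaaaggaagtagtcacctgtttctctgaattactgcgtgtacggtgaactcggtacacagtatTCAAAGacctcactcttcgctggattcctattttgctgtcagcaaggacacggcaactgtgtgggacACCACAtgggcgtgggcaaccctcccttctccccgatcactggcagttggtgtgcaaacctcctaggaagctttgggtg

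Among the 10256 tested genes with such an entry, 13% held the TCF letters, 13.4% the RUNX letters and 13.3% the PU.1 letters in this window. Of 42 genes that rose in the T lineage lists 26 had an entry, of which 23.1% held the TCF letters, 26.9% the RUNX letters and 15.4% the PU.1 letters. Of 62 genes that fell in the myeloid lists 47 had an entry, of which 10.6%, 17% and 40.4% held the letters of TCF, RUNX and PU.1. A match describes the letters and shows no binding.

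Progenitor factors did not move as a block. Of 19 tested, 10 rose and 6 fell. Mycn was 15.3 and 16.96 CPM in DN1 and 45 and 57.8 CPM in DN2, a 3.18-fold rise. Bcl11a, a factor of lymphoid and stem cell programs, rose 2.05-fold, from 53.6 and 53.3 to 111 and 109 CPM, and Erg rose 1.92-fold. Lmo2 and Lyl1 fell 1.67-fold and 1.36-fold. Hoxa9 and Mef2c were not called. Of the progenitor surface genes, Cd34 was 72.0 and 77.2 CPM in DN1 and 271 and 249 CPM in DN2, a 3.48-fold rise, and Flt3 rose 2.71-fold. Ly6a, which encodes Sca-1, was 110 and 118 CPM in DN1 and 121 and 110 CPM in DN2, and the sorts overlapped. Cd33 fell 4.22-fold.

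Cytokine receptors moved in both directions. Of 36 tested, 13 rose and 17 fell. Without Il2ra and Kit, whose products chose the cells, 11 of 34 rose. Besides Il2rb and Il7r, the chains Il12rb2 and Il12rb1 rose 5.79-fold and 3.24-fold, and Il2rg, the common gamma chain, rose 1.51-fold. Il12rb2 was 9.67 and 8.62 CPM in DN1 and 53.4 and 52.0 CPM in DN2. Those that fell included the receptor chains of GM-CSF, Csf2ra and Csf2rb, at 4.09-fold and 2.11-fold lower, and Il6ra at 2.92-fold lower. Csf2rb shares sequence with Csf2rb2. Tgfbr2 and Il4ra were not called.

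Homing receptors had 6 that rose and 5 that fell among 16 tested, and 3 fell without DN1 replicate 2, without DN2 replicate 2 or with library totals. Itgae, the CD103 integrin chain, was 0.770 and 0.813 CPM in DN1 and 17.3 and 20.2 CPM in DN2, a 23.4-fold rise, and its partner chain Itgb7 rose 3.14-fold. Ccr7 rose 3.24-fold. Cxcr2, the neutrophil chemokine receptor, was 53.6 and 48.1 CPM in DN1 and 5.13 and 4.09 CPM in DN2, 11-fold lower. Ccr9, the thymus homing receptor, had 1 read in DN1 and 4 in DN2.

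Cell cycle genes had small folds. Among 20 genes of S phase 8 rose and 3 fell, and the helicase subunit Mcm6 was 445 and 454 CPM in DN1 and 681 and 668 CPM in DN2, a 1.502-fold rise. Without DN2 replicate 1 the number that rose was 5, and the number that fell was 1 without DN1 replicate 1 and 0 without DN2 replicate 2. Among 20 genes of G2 and M phase none rose and 7 fell, with a median log2 fold change of -0.13 that became 0.02 with library totals, under which no member fell. Mki67 was 1114 and 1532 CPM in DN1 and 1166 and 1153 CPM in DN2 and was not called. The number of these genes that fell was 2 without DN1 replicate 2, 4 without DN2 replicate 1 and 2 without DN2 replicate 2.

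Regulators of the cycle showed clearer differences. The D cyclins moved apart, with Ccnd1 3.51-fold and Ccnd2 1.85-fold higher and Ccnd3 1.72-fold lower. Ccnd2 was 230 and 245 CPM in DN1 and 453 and 426 CPM in DN2, and Ccnd3 was 243 and 251 CPM in DN1 and 140 and 148 CPM in DN2. The kinases Cdk6 and Cdk4 rose 1.81-fold and 1.60-fold. The inhibitors Cdkn2d, Cdkn2c and Cdkn1b fell 2.5-fold, 1.82-fold and 1.56-fold. Their replicates did not overlap between the sorts.

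Genes of glycolysis were mostly lower. Of 23 genes of glycolysis and low oxygen 16 fell and 2 rose, with a median log2 fold change of -0.42. The calls for Gapdh, Hk2, Pfkp and Pgk1 as lower were lost with library totals. Hk3, a hexokinase of myeloid cells, was 218 and 238 CPM in DN1 and 58.6 and 63.9 CPM in DN2, 3.72-fold lower, and Slc16a3, a lactate exporter, was 3.10-fold lower. Ldha was not called. Of 15 regulators of cell death 8 fell and 1 rose, and 6 fell in each of the 4 fits without 1 replicate. Those that fell included promoters of death, such as the death receptor gene Fas at 4.19-fold lower and Bmf at 2.66-fold lower. The 1 that rose was Bcl2, which protects cells from death, at 15.6 and 17.3 CPM in DN1 and 82.8 and 79.6 CPM in DN2, a 4.92-fold rise (log2 2.30 ± 0.17 SE, adjusted p = 3.48e-08). Mcl1, which also protects, fell 1.68-fold, and the protective genes Bcl2a1a and Bcl2a1d were called lower too. For the promoters Bax and Bad, the calls as lower were lost with library totals.

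Interferon response genes fell in 12 of 16 tested and rose in none, with a median log2 fold change of -0.56. Stat2 was 78.7 and 82.6 CPM in DN1 and 30.95 and 34.1 CPM in DN2, 2.48-fold lower. Irf7 fell 1.71-fold, and Isg15 and Usp18 were not called. Of 12 targets of p53, 1 rose and 3 fell. Of 17 stress and immediate early genes 4 rose and 9 fell, and the number that fell was 5 without DN1 replicate 1. The number that rose was 2 without DN1 replicate 2, DN2 replicate 1 or DN2 replicate 2. Of 8 tested genes of the mitochondrial genome 4 fell and none rose, and 1 or 2 fell without DN1 replicate 1, DN1 replicate 2 or DN2 replicate 2 or with counts that ignored strand.

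Among the genes with the largest folds, several belong to none of the groups above. Tnfsf11, which encodes the cytokine RANKL, rose 80.2-fold in the fit, from 0.0962 and 0.0602 to 8.09 and 4.85 CPM. With 4 reads in DN1, its fold depends on the prior count. Tmem121 rose 80.4-fold in the fit, which depends on the prior count at its 5 reads in DN1, and Fam20a rose 68.3-fold, and Tubb3, a neuronal tubulin, had 3 reads in DN1 and 300 in DN2. Khdc1a had 2 and 297 reads. Among the falls, Olfm4, a neutrophil granule protein, was 27.5 and 41.5 CPM in DN1 and had 3 reads in DN2, and Mgll, a lipase, had 282 and 2 reads. Itgb2l, a relative of the integrin chain Itgb2, fell 104-fold. The stefin genes Stfa1 and Stfa3 and their relative BC100530 also fell, and their reads may be shared among near-identical copies.

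By the difference in CPM, a measure that favours long and abundant RNAs, the chaperone Hsp90ab1 led the rises, from 4301 and 4246 to 6275 and 5980 CPM. Nucleolin (Ncl) rose from 2155 and 2277 to 3935 and 3707 CPM, and Npm1, another nucleolar protein, rose 1.62-fold. Scin, an actin-severing protein, rose 7.64-fold, from 69.0 and 69.7 to 491 and 569 CPM. The falls were led by Mpo, S100a9 and Thbs1. Actb fell 1.45-fold, from 8257 and 8441 to 5648 and 5842 CPM, and the nuclear RNA Malat1 fell 1.99-fold.

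Markers of further cell types, besides the myeloid lists above, were measured beside these results. The summed B lineage level was 31.1 and 37.1 CPM in DN1 and 19.998 and 19.3 CPM in DN2, and Vpreb3, Igkc and Ms4a1 had 0 reads in both sorts. Of 11 tested B lineage genes 2 rose and 2 fell. In the fits without 1 replicate 0 to 2 rose and 1 or 2 fell, with 0 and 1 without DN1 replicate 2. Dendritic genes summed to 665 and 645 CPM in DN1 and 425 and 412 CPM in DN2. Of 11 tested, 3 rose and 4 fell, while Cd209a was at 0 and Xcr1 had 2 and 3 reads. Of 10 class II genes 1 rose and 2 fell, and each of these calls was lost in at least 1 of the 4 fits without 1 replicate. Erythroid and megakaryocyte genes summed to 183 and 221 CPM in DN1 and 186 and 241 CPM in DN2. Of these Hbb-bt, a beta globin, rose from 1.06 and 0.602 to 16.9 and 17.4 CPM, while the alpha globin gene Hba-a1 had 0 and 1 reads. The globin genes are near-identical copies.

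Stromal genes were present in both sorts. The summed level of the stroma list was 4696 and 5210 CPM in DN1 and 1130 and 1352 CPM in DN2, of which Thbs1, which monocytes and megakaryocytes also make, held 4368 and 4745 CPM in DN1 and 985 and 1015 CPM in DN2. Vcam1 fell 20.4-fold, and Pdgfrb rose from 13.8 and 12.4 to 48.4 and 51.5 CPM. Col1a1 was 62.2 and 75.6 CPM in DN1 and 19.6 and 51.7 CPM in DN2 and was not called. Fn1 was 125 and 202 CPM in DN1 and 44.5 and 146 CPM in DN2, where the sorts overlapped, and was not called. Dcn and Lum had 0 reads. The number of stromal genes that fell was 2, and it was 11 when each library was its own replicate. The part of stromal RNA in the results above was not tested.

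**Figure D4:**
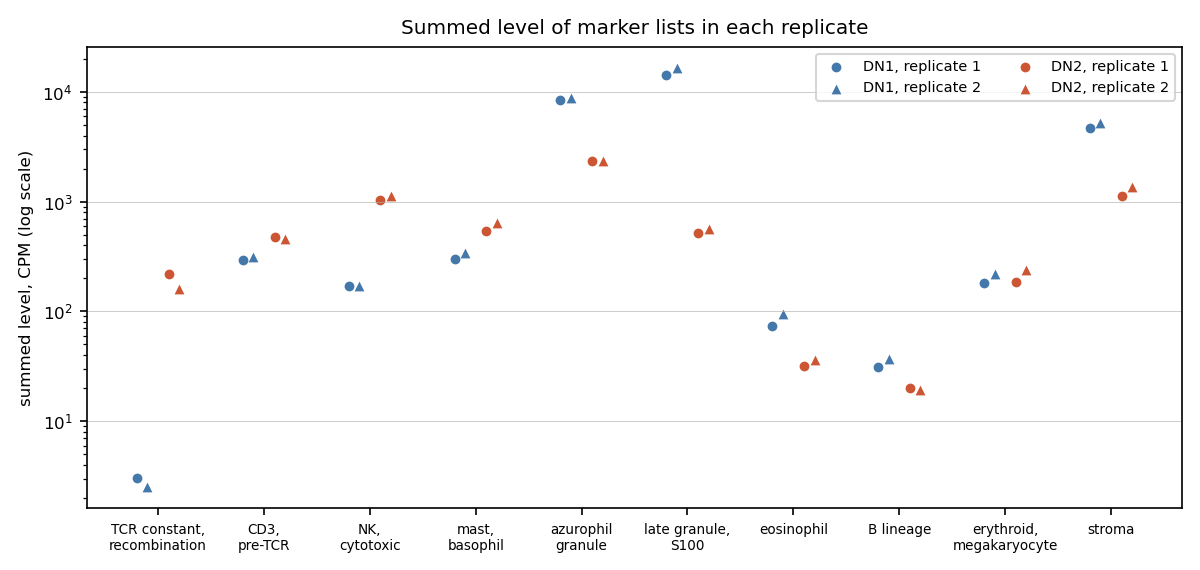
Summed level of 10 marker lists in CPM on a log axis, for replicates 1 (circles) and 2 (triangles) of DN1 (blue) and DN2 (orange). The late granule and S100 list goes from 14348 and 16487 CPM in DN1 to 513 and 558 CPM in DN2, the natural killer and cytotoxic list from 170 and 172 to 1032 and 1131 CPM, and the erythroid and megakaryocyte list is 183 and 221 CPM against 186 and 241 CPM.

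The same sorts were made with constructs labelled L1d and L7d, in cells of the same strain, with 9 libraries for L1d and 12 for L7d. Their counts are not in the P45 means, but they entered the same fit. The calls of the constructs thus share its filter, scaling and estimate of the spread. Which part of TCF-1 these constructs change is not spelled out in the labels of these samples. Of the 6493 genes called with P45, 6172 (95.1%) had the same sign with L1d and 4558 (70.2%) were also called there in that direction. With L7d, 6409 (98.7%) had the same sign and 5169 (79.6%) were called. The stage difference itself called 5979 genes (39.8%) with L1d, 3023 (20.1%) higher and 2956 (19.7%) lower, and 6201 (41.3%) with L7d, 2923 (19.5%) higher and 3278 (21.8%) lower. The genes called the same way with P45 were 76.2% of the L1d calls and 83.4% of the L7d calls.

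The difference between the stage changes was tested as an interaction. With P45 against L1d 237 genes (1.58%) passed, 55 (0.366%) higher and 182 (1.21%) lower, and this number ran from 59 without DN1 P45 replicate 1 to 544 without DN2 L1d replicate 1. With P45 against L7d edgeR called 0 of 15010 genes (0.0%). There, 712 genes had an unadjusted p under 0.05, and DESeq2 called 11.

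Genes whose stage change differed from that with L1d included receptors and antigen-presenting cell genes. Ccr7 rose 3.24-fold with P45 and from 5.30 ± 0.47 to 98.8 ± 0.14 CPM (SD, n = 2) with L1d, so that its log2 change was 2.54 ± 0.20 (SE) smaller with P45 (interaction -2.54, adjusted p = 2.67e-05). Cst3, cystatin C, fell with P45 from 261 and 263 to 118 and 113 CPM. With L1d it was 202 ± 19.3 CPM in DN1 and 208 ± 3.43 CPM in DN2 (SD, n = 2). The class II genes Cd74, H2-Aa and H2-Eb1 were not called with P45 and rose with L1d, by 1.55, 1.78 and 2.12 on the log2 scale, with interaction adjusted p-values of 0.0106, 0.0333 and 0.0107. Mreg fell with P45 from 22.6 and 27.6 to 4.56 and 5.27 CPM and was 25.1 ± 2.61 and 28.9 ± 1.76 CPM (SD, n = 2) with L1d. The interaction was -2.55 for Mreg, -1.0 for Tmem123 and -1.06 for Bhlhe40.

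Interaction values above 0, where the change with P45 lay above that with L1d, included some T lineage genes. In either direction, the interaction was called for 2 of 21 T lineage factors and 1 of 13 T surface genes. It was called for 0 of 16 CD3 and signalling genes and 0 of 9 receptor constant and recombination genes, where 1.58% of all genes passed. Members with few or no reads in DN1, such as Cd3g, Trdc and Bcl11b, could hardly pass this test. These counts therefore do not show equal changes. The median log2 fold change of the CD3 and signalling genes was 2.89 with P45 and 1.36 with L1d. That of the receptor constant and recombination genes was 5.80 and 5.08. Notch1 was 102 ± 8.93 CPM in DN1 and 108 ± 6.24 CPM in DN2 with L1d (SD, n = 2), against the 2.25-fold rise with P45, an interaction of 1.08 ± 0.18 (SE, adjusted p = 0.00727). Without DN1 P45 replicate 1 it was 1.00 with an adjusted p of 0.0507. Cd24a, a surface protein of immature thymocytes, was 114 and 129 CPM in DN1 and 154 and 142 CPM in DN2 with P45, where it was not called, and went from 233 ± 0.26 to 102 ± 1.72 CPM (SD, n = 2) with L1d. Sh2d3c, an adaptor, fell 1.49-fold with P45 and from 61.4 ± 2.48 to 25.6 ± 1.06 CPM (SD, n = 2) with L1d, an interaction of 0.69. Rnf144a, an E3 ligase, was not called with P45, and its interaction was 0.71. Satb1 rose more with P45, by an interaction of 1.04 ± 0.21 (SE, adjusted p = 0.0241). Fam20a, a secreted pseudokinase, had an interaction of 5.11 ± 0.84 (SE), which without DN1 L1d replicate 2 was 4.42 with an adjusted p of 0.195.

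**Figure D5:**
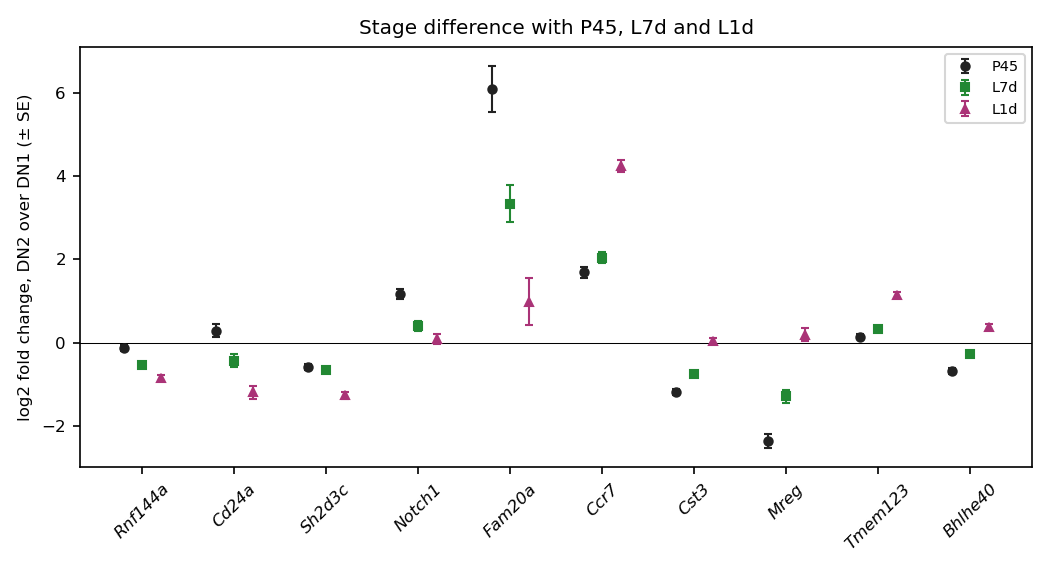
Stage change (log2 fold change of DN2 over DN1, with its standard error) of 10 genes with P45, L7d and L1d. Ccr7 rises with all 3 constructs, by 1.69 with P45, 2.04 with L7d and 4.24 with L1d, while Cst3 is at -1.18, -0.75 and 0.04.

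DN1 cells with EV give a second reference for the DN1 P45 libraries, which both comparisons share, so their values are set side by side. P45 against EV within DN1, with 6 libraries in each, called 1120 genes (7.46%), of which 262 (1.75%) were higher and 858 (5.72%) were lower. The late granule and S100 list had 16 of 18 lower there, with a median log2 fold change of -1.31, beside 18 of 18 and -5.63 for DN2 against DN1. S100a9 was 8697 ± 481 CPM (SD, n = 2) with EV, and Ltf was 6192 ± 340 CPM. Of the eosinophil genes 6 of 9 were lower than with EV, and Prg2 was 257 ± 105 CPM with EV. The azurophil list had 1 of 10 lower than with EV, and Mpo was 6079 ± 443 CPM there (log2 -0.17 ± 0.21 SE for P45 against EV).

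Among the T lineage factors 2 were higher and 6 lower with P45 than with EV in DN1. None of the 9 receptor constant and recombination genes was called between P45 and EV in DN1, and Gata3 was 1.16 ± 0.05 CPM (SD, n = 2) with EV. Axin2 was 0.469 ± 0.134 CPM with EV, below the 2.65 and 2.77 CPM of DN1 with P45. Cd160 was 0.0468 ± 0.0662 CPM with EV and 2.45 and 3.07 CPM in DN1 with P45. Tcp11x2 (chrX:135654698-135693790) took the opposite course between the comparisons. It was 0.0234 ± 0.0331 CPM with EV, 6.30 and 6.90 CPM in DN1 with P45, and 0 and 0.0421 CPM in DN2 with P45. It fell in DN2 with L1d and L7d as well, by 7.27 and 7.28 on the log2 scale.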

How the data were processed

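RNA of cultured mouse progenitors was sequenced as stranded total RNA in 38 + 37 base pairs, per the labels' protocols. STAR 2.5.0a, HTSeq 0.6.1 and GRCm38 are named in the submitters' processing notes. The deposited files hold raw counts per gene from the authors, unstranded and for each strand, and the reverse-strand column was used. The other columns were an alternative only, and there were 0 unused per-sample columns. Library T files were summed within each B replicate, and the labels do not say what B and T stand for. One DN1 L1d file ends early and was not used.

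All 8 primary groups (16 summed replicates) entered 1 edgeR 4.0.16 quasi-likelihood fit in R 4.3.3, with filterByExpr, TMM factors and a prior count of 0.125, and p-values were adjusted by Benjamini-Hochberg over 15010 genes. SE is the standard error of the fitted log2 fold change, and folds in the text are 2 to the power of that fitted value, which for genes with few reads depends on the prior count. The alternatives were DESeq2 1.42.0, RLE factors, library totals, no filter, each library as its own replicate, the first library of each replicate, a replicate block, counts ignoring strand, removal of ribosomal and mitochondrial genes, TMM without myeloid genes, a fit of the 2 P45 groups alone and leaving out each replicate. For a sort with 0 reads, folds were computed against 3 counts summed over its replicates. These floors and the intervals cover counting error only.

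Named genes were the 15 largest rises and falls, the 10 largest in CPM, 5 per direction of the interaction with at least 5 CPM, Tcf7, and the members of 36 lists with 544 genes, of which 489 were tested. The members and lists were chosen with earlier results of these data known. On simulated counts of the P45 comparison over 15010 genes, 52.2% of 1.5-fold, 77.6% of 2-fold and 95.5% of 4-fold changes were recovered. Of the 161 calls 11 were false. The simulation changed 67, 67 and 66 genes for these folds, drawn only from genes above a low level. The data called 6493 genes, so these rates do not carry over to them. Promoters come from RefSeq on GRCm38.p6. Values of some named genes are not reported here.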

Additional observations from a re-analysis of the deposited data

Results flagged for a closer look

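Some libraries stood apart within their group of 6 by the gap of the highest or lowest value to its neighbour over the group's range, among 42 such tests with a critical value of 0.625. Chance alone flags about 1 in 20 groups. In DN1 this ratio was 0.694 for Tcf7, 0.642 for Gzmb and 0.649 for the number of reads in genes. For Bcl11b in DN1 it was 1.0, since a single library held the single read. In DN2 it was 0.631 for Lck and 0.677 for the percent of reads in mitochondrial protein genes.

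The stage change with P45 differed from that with L1d by a test of the difference itself for the genes named by rule. On the log2 scale the difference was 0.713 for Rnf144a, 1.473 for Cd24a, 0.688 for Sh2d3c, 1.083 for Notch1 and 5.11 for Fam20a. It was -2.544 for Ccr7, -1.217 for Cst3, -2.549 for Mreg, -1.0 for Tmem123 and -1.059 for Bhlhe40.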

How the results depend on the processing

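The counts of 3095 genes higher and 3398 lower in DN2 stayed within 1.5 times under every alternative run, with 4385 and 2418 for library totals, 2830 and 3032 by DESeq2, and 3248 and 3568 with the replicate block. The share of calls that were higher moved from 47.67% to 64.46% with library totals. The median of all genes then moved to 0.13, and Slbp reversed to 0.006 (adjusted p = 0.953). Samples with the same replicate number correlated at 0.082 between the P45 sorts, at 0.041 to 0.255 between the 4 groups of the L1d interaction and at 0.02 to 0.181 between those of the L7d interaction. All of these values were positive, and between DN2 sorts they were 0.255 for P45 and L1d and 0.181 for P45 and L7d. The labels do not say what a replicate number shares. The main fit took the samples to share only a number, and the replicate block was an alternative.

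The interaction with L1d was less stable than its 237 calls (55 higher, 182 lower). It called 443 (132 and 311) by DESeq2, 130 (21 and 109) with library totals, 988 (308 and 680) with no filter on low counts, 1721 (630 and 1091) with each library as its own replicate and 516 (117 and 399) with the replicate block. Leaving out 1 replicate gave 59 to 544 calls, 8 to 86 higher and 51 to 458 lower. The interaction with L7d called 0 genes, against 11 (7 and 4) by DESeq2, 136 (86 and 50) with no filter, 241 (125 and 116) with each library as its own replicate, and 0 to 2, all higher, without 1 replicate. The cause was not tested.

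Of the 45 genes named by rule 43 kept their call in all 4 fits without 1 P45 replicate, as did 261 of 335 called list genes. Of list genes called lower in the stroma list, 2 became 12 with no filter, and in the erythroid list 2 became 6, and 0 or 1 without 1 replicate. Without 1 replicate, the lone sample left in a sort was assumed to vary like the other groups. With 2 replicates a sort, differences under 2-fold were often missed on simulated counts, where far fewer genes changed than were called in the data. How often the P45 comparison itself missed them was not tested.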
